A study of Mus musculus with 6 samples.

Results

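Plasminogen activation was described here through 7 genes, chosen by symbol and found by Ensembl identifier among the 56940 genes of the files. They encode the activators urokinase (Plau) and tissue plasminogen activator (Plat), their substrate plasminogen (Plg), the urokinase receptor (Plaur) and the serpins Serpine2, Serpinb2 and Serpinf1. All 7 were present in the files and 5 had enough counts to be tested. RNA was sequenced from capsules of the mouse lens, with the epithelial cells that stay on them, in a model of cataract surgery in which the fiber cell mass is taken out through an opening at the front of the eye. The 72 h group held 3 libraries of capsules collected 72 h after surgery, and the 0 h group held 3 libraries of capsules collected at the time of surgery. Each library pooled 5 capsules. All mice were labelled wildtype C57BL/6, with no age given, and every library's description also holds the string RUNX_Cre_N, which the labels do not explain.

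Plasminogen is a circulating proenzyme made mainly by the liver. Urokinase and tissue plasminogen activator cleave it to plasmin, a serine protease that dissolves fibrin, degrades matrix proteins and can activate metalloproteinases and latent growth factors. The urokinase receptor, a protein anchored to the outer membrane by a lipid, holds urokinase at the cell surface, and serpins block the activators or plasmin by trapping the protease in a covalent complex. In healing wounds the system is known for letting cells clear fibrin and move through matrix.

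Counts in genes ranged from 8453450 to 8945397 in 72 h libraries and from 11338820 to 12432688 in 0 h libraries. Levels are given in CPM, the read count of a gene put on a common library size with edgeR's TMM composition scaling. Of the 9 lens epithelial markers, 8 were called lower at 72 h, among them Cryaa, where 17.5% of all tested genes were. The list, mostly Cryaa, summed to 10460 to 19040 CPM at 72 h and 79100 to 84320 CPM at 0 h. Pax6 was the marker not called, with 587 to 749 CPM in 72 h libraries and 661 to 706 CPM in 0 h libraries. Of 13 tested macrophage and monocyte markers, 11 were called higher at 72 h, where 21.0% of all tested genes were. Several of the 11, such as Cd68, had enough counts for the test only in their 72 h libraries. The summed level of the list was 212 to 391 CPM at 72 h and 31.4 to 47.2 CPM at 0 h. The summed level of the neutrophil list was 26.6 to 167 CPM at 72 h and 0.931 to 2.44 CPM at 0 h, with Ly6g, Mpo, Elane and Camp at 0 counts throughout. The highest of these sums, in 72 h replicate 3, held 135 CPM of Ltf, which was not called. Fibroblast and stromal markers summed to 753 to 1457 CPM at 72 h and 246 to 339 CPM at 0 h, with Col1a1 and Col1a2 making up most of the sum at 72 h and Pdgfra, which was called lower, most of that at 0 h. Photoreceptor markers summed to 58.8 to 177 CPM at 72 h and 728 to 1801 CPM at 0 h. Mitochondrially encoded genes took 16.6% to 25.3% of counts at 72 h and 3.75% to 3.91% at 0 h. The 72 h replicate 3 library had the highest mitochondrial share and stood apart, with keratin genes at 0.589% of its counts, against 0.00475% and 0.0179% in the other 72 h libraries and 0.00906% to 0.0135% at 0 h. In bulk RNA of this kind, fewer cells of a type and less RNA per cell cannot be told apart.

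Promoter sequence was at hand for 4 of the 7 genes, from RefSeq on the mouse build GRCm38.p6, and the 250 bases before the annotated start are shown for 3 of them. Plaur and Serpinf1 are shown because both rose from a low level, and Serpine2 because it was the tested gene that was not called. Capitals mark every match, on either strand, to a motif of a factor active in wounds or of the basal promoter. The AP-1 motif searched was TGANTCA. That of RUNX factors was TGTGGT, that of TEAD factors was GGAATG, and the SMAD palindrome was GTCTAGAC. The basal motifs were GGGCGG for SP1 and TATAAA for the TATA box. The Plaur window is chr7:24462233-24462482 on the plus strand, the Serpinf1 window chr11:75422624-75422873 on the minus strand, and the Serpine2 window chr1:79858666-79858915 on the minus strand, each written 5′ to 3′ along its gene.
Plaur: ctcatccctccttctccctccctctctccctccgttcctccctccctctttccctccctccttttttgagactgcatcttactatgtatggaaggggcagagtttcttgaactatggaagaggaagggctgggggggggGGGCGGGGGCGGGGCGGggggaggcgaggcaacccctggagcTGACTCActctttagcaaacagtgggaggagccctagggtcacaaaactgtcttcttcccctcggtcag
Serpinf1: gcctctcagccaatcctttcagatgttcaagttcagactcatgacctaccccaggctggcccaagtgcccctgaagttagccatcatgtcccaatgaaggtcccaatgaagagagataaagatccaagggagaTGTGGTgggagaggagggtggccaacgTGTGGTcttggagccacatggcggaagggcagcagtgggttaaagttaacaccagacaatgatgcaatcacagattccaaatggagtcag
Serpine2: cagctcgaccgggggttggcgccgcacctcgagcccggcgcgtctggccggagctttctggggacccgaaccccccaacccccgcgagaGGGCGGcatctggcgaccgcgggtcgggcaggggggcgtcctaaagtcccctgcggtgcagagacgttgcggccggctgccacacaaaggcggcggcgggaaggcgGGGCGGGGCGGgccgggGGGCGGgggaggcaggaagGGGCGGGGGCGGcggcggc

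The Plaur window held 1 AP-1 match, TGACTCA, whose first base lies 69 bases before the start, and 3 SP1 matches, a pair of which share 1 base. The Serpinf1 window held 2 RUNX matches on the gene's own strand, whose last bases lie 112 and 85 bases before the start. The Serpine2 window was rich in GC (78.8% of bases) and its 6 matches were all SP1. Among all 32851 promoter windows of this length, which include several starts for some genes, an AP-1 match was present in 6.75%, a RUNX match in 14% and an SP1 match in 32.7%. The window of Serpinb2, with 2 annotated starts, held the same AP-1 match, TGAATCA, upstream of both. A match says only that these letters are there.

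Both activators and the receptor rose at 72 h. Over all 15407 tested genes 21.0% were called higher (edgeR quasi-likelihood test, adjusted p under 0.05), and 4 of the 5 tested members were called higher, namely Plau, Plat, Plaur and Serpinf1. A rise of at least 4-fold was called for 7.98% of all tested genes and for the same 4 members. None of the 5 was called lower by edgeR, DESeq2 or limma voom, nor at an unadjusted p under 0.05 (0 genes in each case). Plau, Plaur and Serpinf1 passed the count filter through their 72 h libraries alone, so that these 3 could be tested only as genes that rose, and the count of called members is given as a description only. Groups did not overlap for 53.5% of all tested genes and for 4 of the 5 members.

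**Figure D1:**
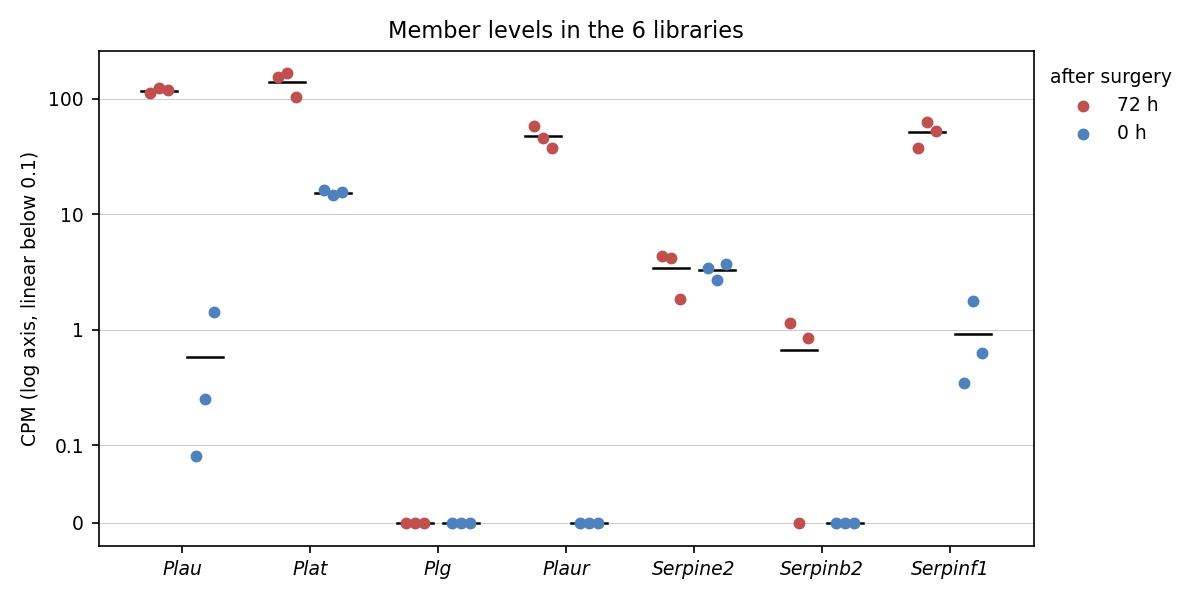
Level of each member in the 6 libraries, in CPM on a log axis that is linear below 0.1, with 72 h in red to the left of 0 h in blue and a bar at the mean of 3 libraries. Plau, Plat, Plaur and Serpinf1 lie higher in all 3 libraries at 72 h, Serpine2 overlaps between the groups, Serpinb2 is seen in 2 of the 72 h libraries and Plg lies at 0 throughout.

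Plau encodes urokinase, the activator that works on the cell surface. It stood at 111, 123 and 118.2 CPM in the 72 h libraries, against 0.0865, 0.254 and 1.42 CPM in the 0 h libraries. The 72 h libraries were close to each other, while at 0 h 18 of the 22 counts came from replicate 3. The log2 change was 7.57 ± 0.62 (SE; edgeR adjusted p = 2.6e-04), which made Plau the 86th of the 15407 tested genes by fitted rise. Without 0 h replicate 3, which left 1 and 3 counts of Plau at 0 h, the log2 change was 9.32 (edgeR adjusted p = 1.4e-06, within a range of 2.5e-15 to 0.00461 over all alternatives). Replicate 3 of the 0 h group also had its highest summed macrophage and monocyte markers, at 47.2 CPM, against 31.4 and 35.3 CPM in the others. The list did not move as one. Lyz2 was at 5.19, 6.60 and 13.3 CPM in 0 h replicates 1, 2 and 3, and Adgre1, C1qb, Mrc1 and Fcgr1 were also highest in replicate 3. Cd14, Cd68, Itgam, Tyrobp and Ms4a7 were lowest there. The part of these cells in the Plau counts of that library was not tested.

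Plat encodes tissue plasminogen activator, which is best known for dissolving fibrin. Its level was 153, 166 and 104 CPM at 72 h, against 16.1, 14.7 and 15.5 CPM at 0 h. The 0 h libraries differed little among themselves, and the lowest 72 h library, replicate 3, still lay well above them. Mean CPM was 9.13-fold higher at 72 h. Plat was thus already well measured at 0 h, with 174 to 196 counts a library, whereas Plau had at most 18.

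Plaur encodes the urokinase receptor, found on migrating epithelial cells and on myeloid cells. It had 502, 399 and 306 counts in the 72 h libraries (58.1, 46.1 and 37.4 CPM) and 0 counts in each 0 h library. The floor that 3 counts set over the pooled 0 h libraries is 0.0832 CPM, and the mean at 72 h was 47.2 ± 10.4 CPM (SD, n = 3). With the libraries of each group pooled and scaled for depth, 1207 counts at 72 h against that floor put the receptor at least 569-fold higher. Its fitted log2 change rests on a prior count and is not a size. Beside it, markers were called higher for macrophages and monocytes (11 of 13 tested), neutrophils (3 of 4) and fibroblasts and stroma (4 of 5, with Pdgfra lower). Over all tested genes 21.0% were. The 3 neutrophil markers, Adgre1, Cd68, Cd14, Itgam, Ccr2, Fcgr1, Tyrobp, Dcn and Lum passed the count filter through their 72 h libraries alone. They could be tested only as genes that rose, and these counts are a description only. The list sums in 72 h replicates 1, 2 and 3 were 297, 391 and 212 CPM for macrophages and monocytes, 52.9, 26.6 and 167 CPM for neutrophils, and 1457, 1315 and 753 CPM for fibroblasts and stroma. The part of these cells in the rise of Plaur was not tested.

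Plg, the gene of the substrate plasminogen, had 0 counts in all 6 libraries, which allows up to 0.118 CPM over the pooled 72 h libraries and 0.0832 CPM over the pooled 0 h libraries. These limits cover counting error only, since reads copied by PCR are not independent molecules. A gene on the opposite strand, Slc22a3, overlaps exons of Plg in the annotation, and reads there may have been left out of its count as ambiguous. Of the 6 liver markers, Alb, Serpina1a, Fgb and Ahsg were also at 0 counts throughout and Apoa1 had 1 count. Ttr, which the pigmented epithelium of the eye also makes, had 0, 2 and 25 counts at 72 h, against 275, 265 and 283 counts at 0 h, and was called lower. The RNA of the capsules says nothing of plasminogen protein that blood or aqueous humor could bring.

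Of the 3 serpins among the members, Serpinf1 and Serpine2 were tested and Serpinf1 was called. It encodes pigment epithelium-derived factor, a secreted serpin with no protease target that is known for restraining vessel growth in the eye. Its level was 37.3, 63.4 and 52.8 CPM at 72 h, against 0.346, 1.78 and 0.631 CPM at 0 h. The groups lay far apart, although 0 h replicate 2 held 21 of the 33 counts of its group. The log2 change was 5.78 ± 0.49 (SE; edgeR adjusted p = 4.2e-05), and 6.65 without 0 h replicate 2 (edgeR adjusted p = 2.5e-05, within 1.2e-40 to 0.00116 over all alternatives). Markers of pigmented epithelium and melanocytes, whose cells also make this protein, summed to 20.7 to 69.9 CPM at 72 h and 114 to 159 CPM at 0 h. Of 8 tested markers 4 were called lower, where 17.5% of all tested genes were. Rpe65 and Rlbp1 passed the filter through their 0 h libraries alone. Tyr, Tyrp1, Dct and Mlana were not called, and Oca2 (mean 2.74 CPM at 72 h and 65.3 CPM at 0 h) held much of the fall in the sum. Within the 0 h group the highest sum, 159 CPM, was that of replicate 2, where Dct was at 43.8 CPM, against 13.2 and 26.2 CPM in replicates 1 and 3. Fibroblast and stromal markers, 4 of 5 tested called higher (Dcn and Lum through their 72 h libraries alone) and 1 lower, also had their highest 0 h sum in replicate 2. It was 339 CPM, against 262 and 246 CPM in replicates 1 and 3. Pdgfra, the marker called lower, made up most of these sums, with 264 CPM in replicate 2 and 218 and 200 CPM in replicates 1 and 3. Dcn, the decorin gene of that list, named after its values were seen, had 275, 154 and 51 counts at 72 h, against 5, 21 and 8 counts at 0 h. Serpinf1 had 322, 549 and 432 counts at 72 h, in another order. At 0 h Col1a2 was also highest in replicate 2 (441, 796 and 497 counts), while Col1a1 (57, 59 and 54 counts) was nearly level and Lum had 0, 0 and 1 counts. The part of either list in the Serpinf1 counts was not tested.

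Serpine2 encodes protease nexin-1, a serpin that blocks urokinase, tissue plasminogen activator and thrombin. It was low in both groups, with 4.40, 4.16 and 1.83 CPM at 72 h and 3.46, 2.71 and 3.71 CPM at 0 h. The groups overlapped, and 72 h replicate 3 was the lowest of the 6 libraries. The log2 change was 0.07 ± 0.50 (SE; edgeR adjusted p = 0.925), and its sign turned with the scaling and the libraries used. The libraries held 15 to 38 counts of it at 72 h and 32 to 47 counts at 0 h, and missing the threshold does not show that it did not change.

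Serpinb2 encodes plasminogen activator inhibitor type 2, a serpin of macrophages and stressed epithelia. It had 10, 0 and 7 counts in the 72 h libraries and 0 counts in each 0 h library, too few to be tested. Pooled over the 72 h libraries the level was at least 8.02-fold above the 0 h floor, with every count in replicates 1 and 3. The summed surface epithelial markers of the same libraries were 4.98, 36.4 and 1949 CPM, beside the macrophage and neutrophil sums given for Plaur, and the part of these cells in the Serpinb2 counts was not tested. An exon of Serpinb10 overlaps Serpinb2 on the same strand in the annotation, so reads may have been left out of its count as ambiguous.

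Divided by exon length, the members changed order between the groups. At 72 h Plau led with 49.6 ± 2.50 CPM per kb (SD, n = 3), and each of its libraries lay above every library of the others. Plat (22.6 ± 5.26 CPM per kb), Serpinf1 (21.7 ± 5.58 CPM per kb) and Plaur (18.04 ± 3.97 CPM per kb) followed with overlapping ranges. Serpine2 (0.418 ± 0.171 CPM per kb) and Serpinb2 (0.286 ± 0.256 CPM per kb) lay far below and overlapped each other. At 0 h Plat led with 2.47 ± 0.109 CPM per kb, above every library of the others, and Serpine2 (0.397 ± 0.0627), Serpinf1 (0.389 ± 0.321) and Plau (0.248 ± 0.307), all in CPM per kb, overlapped.

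**Figure D2:**
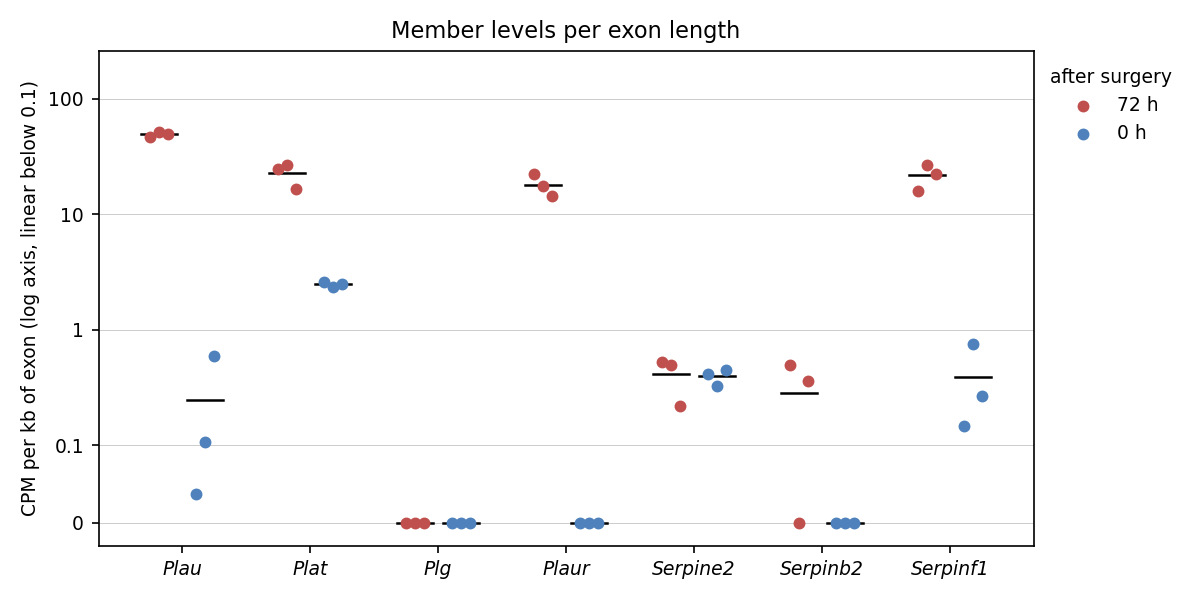
Level of each member per length in the 6 libraries, in CPM per kb of exon on a log axis that is linear below 0.1, with 72 h in red to the left of 0 h in blue and a bar at the mean of 3 libraries. Plau leads at 72 h with 49.6 CPM per kb and Plat leads at 0 h with 2.47 CPM per kb.

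The same counts per kb were also written as a ratio of the activators within each library, which does not depend on library scaling. This ratio was not planned beforehand, and it adds no evidence apart from the levels per length. The log2 ratio of Plau to Plat, per length, was 0.94, 0.97 and 1.59 at 72 h, against −6.14, −4.46 and −2.05 at 0 h. Plau thus had the higher level per length in all 3 libraries at 72 h, and Plat in all 3 at 0 h. The order at 72 h rests on the exon lengths used, 2.367 kb for Plau and 6.241 kb for Plat. In counts not divided by length, Plat was higher in 72 h replicates 1 and 2 (1325 and 1433, against 961 and 1065). Plau was higher in replicate 3 alone (967 against 847). The difference in the log2 ratio was 5.38, 72 h minus 0 h (exact two-sided permutation p = 0.1, the smallest that 3 libraries against 3 can give). The ratios of 0 h replicates 1 and 2 rest on 1 and 3 counts of Plau, at or under the floor of 3 counts, so the size of the difference is loose. Leaving out 0 h replicate 3 gave 6.47 and leaving out 0 h replicate 1 gave 4.42, settings chosen after seeing the data.

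Both activators together were set against Serpine2 and Serpinb2 in the same way. The log2 ratio was 6.13, 7.29 and 6.83 at 72 h, against 2.65, 2.92 and 2.78 at 0 h, a difference of 3.97 (exact two-sided permutation p = 0.1, the smallest possible). The groups lay apart, with each 72 h library above every 0 h library. The ratio covers these 2 serpins and not all inhibitors of the activators.

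**Figure D3:**
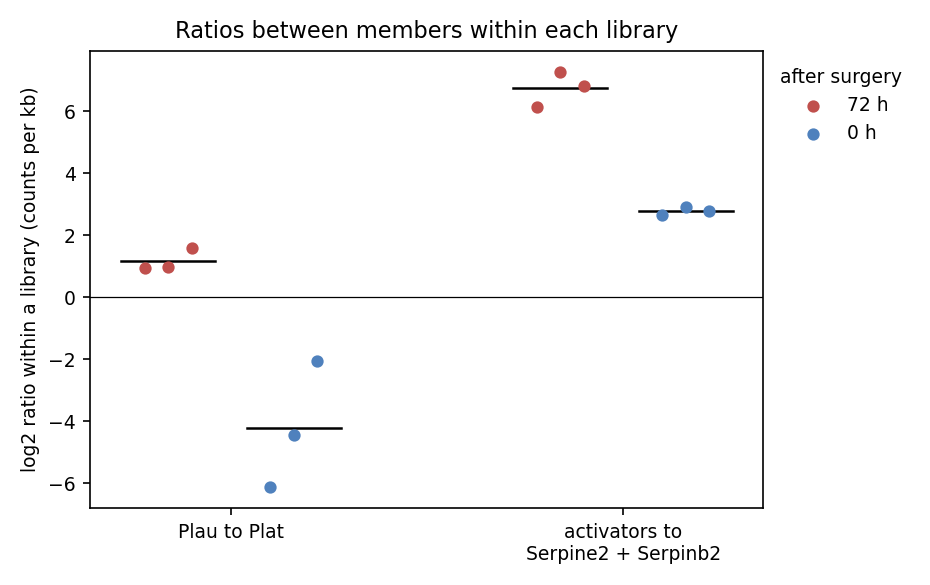
Log2 ratios of counts per kb within each library, with 72 h in red to the left of 0 h in blue, a bar at the mean of 3 libraries and a line at 0 where both sides are equal. The ratio of Plau to Plat and that of both activators to Serpine2 and Serpinb2 lie higher at 72 h without overlap.

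Around the members, a list of 23 genes of plasminogen activation held 17 others, of which 11 were tested, 4 were called higher and 7 were not called. Over the whole list 7 of 15 tested genes were called higher, 46.7% beside 21.0% of all tested genes (Plau and Plaur through their 72 h libraries alone), and its median log2 change was 0.46, against −0.02 over all genes. By edgeR 0 were called lower, and 1 was at an unadjusted p under 0.05, with DESeq2 and with limma voom. That gene was Vtn, which encodes vitronectin, a plasma and matrix protein that binds the urokinase receptor, and which was named after its values were seen. It stood at 6.25, 16.4 and 2.57 CPM at 72 h, against 22.7, 35.2 and 22.1 CPM at 0 h, without overlap (log2 change −1.66 ± 0.61, SE; edgeR adjusted p = 0.0725). It was called without 72 h replicate 2 (log2 change −2.59; edgeR adjusted p = 0.00198) or 72 h replicate 3 (−1.22; 0.0275), within 0.00198 to 0.232 over all alternatives.

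A2m, a broad protease inhibitor that can trap plasmin, rose to 85.9 ± 39.7 CPM at 72 h, against 16.1 ± 4.25 CPM at 0 h (SD, n = 3). Serpini1, which encodes neuroserpin, an inhibitor of tissue plasminogen activator, was not called, with 2, 5 and 11 counts at 72 h and 26, 19 and 25 counts at 0 h. Serpinf2, the gene of the main plasmin inhibitor of blood, had 1 count at 72 h and 2 at 0 h, and Serpina5 and Cpb2 had 0 in all libraries.

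Among cell surface partners and clearance receptors, Anxa2, whose product binds tissue plasminogen activator and plasminogen in complex with that of S100a10, was at 540, 580 and 832 CPM at 72 h, against 142, 125 and 148 CPM at 0 h (log2 change 2.23 ± 0.17, SE; edgeR adjusted p = 7.9e-06). Its partner S100a10 was not called (log2 change 0.38 ± 0.20, SE). Lrp1, the endocytic receptor that clears complexes of activators with serpins, changed by 0.46 ± 0.13 and Igf2r, which can bind the urokinase receptor, by 0.50 ± 0.11 on the log2 scale (SE), both called higher. The call of Lrp1 was lost without any one of the 0 h libraries, without 72 h replicate 1 or with library size alone (edgeR adjusted p of 0.0612 to 0.0756, within 1.7e-05 to 0.0756 over all alternatives). The plasminogen receptor genes Plgrkt (log2 change 0.16 ± 0.29, SE) and Eno1 (−0.03 ± 0.13, SE) were not called, and near-identical copies of Eno1 can share its reads. Mrc2, which encodes an endocytic collagen receptor that associates with the urokinase receptor, averaged 44.5 ± 24.8 CPM in 72 h libraries and 20.1 ± 3.50 CPM in 0 h libraries (SD, n = 3 each). It was not called by edgeR. It was called by DESeq2 on all libraries (log2 change 1.16; DESeq2 adjusted p = 0.00896) and by edgeR without 72 h replicate 3 (log2 change 1.53; edgeR adjusted p = 1.6e-05), within 1.6e-05 to 0.261 over all alternatives.

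**Figure D4:**
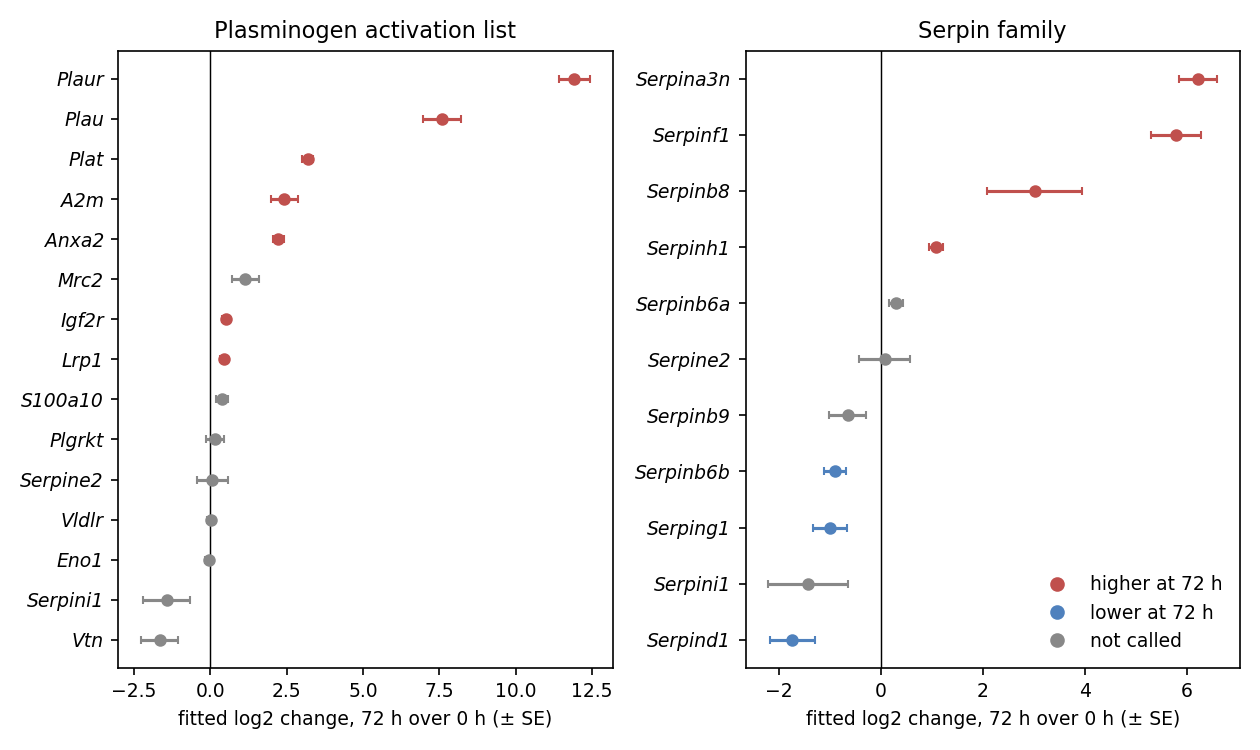
Fitted log2 change, 72 h over 0 h, with its SE, of the tested genes of the plasminogen activation list (left) and of the serpin family (right), in red where called higher at 72 h, in blue where called lower and in grey where not called. The point of Plaur rests on a prior count because its 0 h libraries held 0 counts, and Serpine2 lies at 0.07 between the serpins called in either direction.

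The serpin family as described here held 60 protein-coding genes, of which 31 had 0 counts in every library and 11 were tested. Of these, 4 were called higher and 3 lower, where 21.0% of all tested genes were called higher and 17.5% lower. Serpinf1 and Serpinb8 were tested through their 72 h libraries alone, and with them left aside 2 of the 4 higher calls remain. Without 72 h replicate 2 the number called higher was 7. Without 0 h replicate 1 the number called lower was 1. Serpina3n, an acute phase serpin with near-identical neighbours that can share reads, had a mean level of 2853 ± 834 CPM at 72 h, against 38.5 ± 11.1 CPM at 0 h (SD, n = 3), and Serpinh1, the collagen chaperone, rose by 1.08 ± 0.13 on the log2 scale (SE). Serpinb8 was also called higher (log2 change 3.01 ± 0.93, SE; edgeR adjusted p = 0.0295), but it had 133 of its 178 counts at 72 h in replicate 3, without which the log2 change was 1.58 (edgeR adjusted p = 0.162, within 0.00203 to 0.162 over all alternatives). Its log2 change was 3.65 without 0 h replicate 3, and the call was lost without any one of the 0 h libraries. Lower at 72 h were Serpinb6b (log2 change −0.90 ± 0.21, SE), the heparin cofactor gene Serpind1 (log2 change −1.74 ± 0.44, SE) and the C1 inhibitor gene Serping1. Serping1 averaged 36.7 ± 17.6 CPM in 72 h libraries and 73.4 ± 9.15 CPM in 0 h libraries (SD, n = 3 each). Without 72 h replicate 2 the log2 change of Serpind1 was −2.44, and its call was lost without 0 h replicate 1 (edgeR adjusted p = 0.051, within 9.0e-05 to 0.051 over all alternatives). The call of Serping1 was the least firm, with an edgeR adjusted p of 0.0458 that passed the threshold under 8 of 15 alternatives.

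Several other serpins of clade B, to which Serpinb2 belongs, were seen mainly in 72 h replicate 3. Serpinb5 had all of its 97 counts there, Serpinb3a 103 of its 108 counts at 72 h and Serpinb1a 196 of its 215 counts at 72 h, and all 3 were chosen after their values were seen. Serpinb2, with 10 of its 17 counts in 72 h replicate 1, was spread otherwise.

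A list of 18 genes of clotting and fibrin held 10 tested genes, of which 7 were called higher and 1 lower, where 21.0% of all tested genes were called higher and 17.5% lower. F7 and F10, both called higher, passed the filter through their 72 h libraries alone. F2rl1, which encodes a receptor cut by trypsin-like proteases, was at 116.9, 90.8 and 86.2 CPM at 72 h, against 3.29, 2.37 and 1.89 CPM at 0 h (log2 change 5.28 ± 0.23, SE; edgeR adjusted p = 2.9e-07). The thrombin receptor gene F2r rose by 1.02 ± 0.13 on the log2 scale (SE). F10, the gene of clotting factor X, was seen in 505 reads of the 72 h libraries and 1 of the 0 h libraries, and the ratio of these, scaled for depth, was 715 (exact 95% counting interval 128 to 28290). That interval covers the counting error of pooled reads only and leaves out the spread between libraries. The single 0 h read was in replicate 2, and without that library the 0 h group held 0 counts and the fitted change rests on the prior count. F7, the gene of factor VII, rose to 9.10 ± 4.92 CPM at 72 h, against 0.167 ± 0.00794 CPM at 0 h (SD, n = 3). F8 was the gene called lower (log2 change −1.22 ± 0.40, SE; edgeR adjusted p = 0.0371), and leaving out any single library except 72 h replicate 3 ended its call (0.0729 to 0.166, within 0.005 to 0.166 over all alternatives). The fibrinogen genes Fga, Fgb and Fgg had 0 counts in all libraries.

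The genes whose profile over the 6 libraries was most like that of a member were found among 9099 other genes (9100 for Serpine2) of at least 10 CPM, by the root mean square difference of log2 CPM after centring each gene on its own mean. Nearest to Plau were Runx1 (0.45), Adamtsl3 (0.52) and Col5a3 (0.52). Nearest to Plat were Cenpf (0.13), Mpeg1 (0.14) and Plk1 (0.15), and nearest to Plaur were Pdgfb (0.16), Col1a1 (0.16) and Adcy7 (0.18). Serpinf1 was most like Ano1 (0.35), Adgre5 (0.39) and Moxd1 (0.43), and Serpine2 most like Mrpl51 (0.10), Impdh2 (0.11) and Anapc15 (0.11). Since the 6 libraries fall in 2 groups, the size of the change sets most of this likeness. For Plaur, with 0 counts at 0 h, that size is set by the 0.5 CPM added before the log, and its nearest genes depend on this setting. Some 0 h levels of Plau (0.0865, 0.254 and 1.42 CPM) and Serpinf1 (0.346, 1.78 and 0.631 CPM) also lay near or under 0.5 CPM. Their nearest genes can depend on the setting too.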

How the data were processed

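Raw read counts per Ensembl gene were deposited by the authors, one file per library, with no normalization. The submitters' processing notes name HISAT2, HTSeq, edgeR and build GRCm39. Per the labels' protocols, RNA came from a Qiagen RNeasy kit and libraries from the Takara SMARTer Stranded Pico v2 kit. No source used here states the strand setting of the counting, so counts of overlapping and antisense genes are uncertain. Reads assigned to no gene (41.9% to 51.7% of a library) were left out. Symbols and exon lengths came from GENCODE M21, which is on another build, and 51947 identifiers had a symbol.

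After filterByExpr (minimum count 10, minimum total 15) and TMM scaling, 15407 genes entered edgeR's quasi-likelihood test with the robust setting (edgeR 4.0.16, R 4.3.3) and the group as its one term. P-values were two-sided, adjusted by Benjamini-Hochberg across those genes and called under 0.05. SE is the log2 change over the square root of F, fold changes carry a prior count of 0.125, and floors use 3 counts over a group. Profiles used log2(CPM + 0.5). Ratios within libraries used counts per kb of exon and an exact permutation test. Nothing says which animals a library came from beyond its being a biological replicate, so p-values measure the spread between pools. DESeq2 1.42.0 and limma 3.58.1 were alternatives. The main test was tested on simulated data. A gene that was not called is not shown to be unchanged.

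The members and the lists were chosen with earlier results of these data known. Named genes were all members and the inhibitors of the activators or plasmin. To these were added up to 4 called genes with the smallest p in each direction from each list, and the 3 genes most like each tested member. A gene of the lists is not reported here and was left out of their counts.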

Additional observations from a re-analysis of the deposited data

How the results depend on the processing

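Plau, Plat, Plaur and Serpinf1 were called higher under all 15 alternatives. Log2 changes were 7.08 to 9.32 for Plau, 3.06 to 3.38 for Plat and 5.39 to 6.65 for Serpinf1. The 9.32 of Plau rests on 1 and 3 counts at 0 h. The fitted values of Plaur, 10.13 to 12.13, rest on 0 counts at 0 h and are not a size. Serpine2 was not called under any of the 14 alternatives that tested it, but its sign reversed with upper quartile normalization (−0.01) and its log2 change ran from −0.14 to 0.39 without single libraries; the stricter filter left it out. The signs of 3 other genes that were not called reversed too: Vldlr (−0.06 with upper quartile normalization, −0.03 with library size alone, −0.04 to 0.08 without single libraries), Plgrkt (−0.01 to 0.24 without single libraries) and Eno1 (−0.15 to 0.09 without single libraries). In the activation list 1 gene was called lower with DESeq2, limma voom or the replicate block, and 0 to 1 without single libraries. In the clotting list 2 were called lower with DESeq2 or limma voom, and 0 to 2 without single libraries. Serpins called without single libraries numbered 4 to 7 higher and 1 to 4 lower. The causes were not tested. Libraries of the same replicate number in the 2 groups correlated at −0.04, 0.07 and −0.01, against highest values of 0.05, 0.02 and 0.1 with other numbers. With 3 libraries in each group, this cannot show whether the numbers pair the libraries. With the replicate block 2921 genes rose and 2507 fell, against 3230 and 2700 without it, and 4 members rose as before. The difference in the ratio of activators to Serpine2 and Serpinb2 was 3.73 without division by length and 3.70 to 4.28 without single libraries. That of Plau to Plat was 4.42 to 6.47 without single libraries. Serpinb2 had too few counts for the main test, and with no filter it was not among the 4 members called. Plg had 0 counts and could not be tested.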
